A study of Homo sapiens with 12 samples.

Results

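The 50 genes described here code for the coats and adaptors that shape transport vesicles and for proteins of the Golgi apparatus. They were grouped by function: the Golgi membrane protein GOLM1, 7 subunits of the AP-1 adaptor, 5 of AP-2, 5 of AP-3, 3 clathrin chains, 9 COPI coatomer subunits, 10 COPII coat genes, 6 golgins and GRASPs, and 4 ARF GTPases. All 50 were on the array and all 50 were tested, on 772 probes, among 18253 genes tested in all. Expression was measured on 12 single-colour arrays in MDA-MB-231, an established human breast cancer cell line, in 4 groups of 3 arrays. The cells of cntrl received negative control oligonucleotides, those of mimic145 a Pre-miR-145-5p oligonucleotide, those of sirnaAGO2 Dicer-substrate siRNAs (DsiRNAs) against AGO2, and those of sirnaAGO2+mimic145 both. AGO2 belongs to the Argonaute family, any member of which can hold a microRNA and be guided by it to target RNAs. The Pre-miR oligonucleotides were used at 5 nM, and the DsiRNAs at 500 pM for 72 h. The labels give 1 protocol for all samples and do not say which control oligonucleotide was added to each single-agent group. The design calls the 3 samples of a group biological replicates.

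Cargo leaves the endoplasmic reticulum in vesicles coated with COPII, in which the GTPase SAR1 recruits an inner layer of SEC23 and SEC24 and an outer cage of SEC13 and SEC31. COPI, recruited by ARF GTPases, carries proteins back from the Golgi and between its cisternae. Clathrin with AP-1 serves the trans-Golgi network and endosomes, clathrin with AP-2 the plasma membrane, and AP-3 the route to lysosomes and related organelles. Several subunits are coded by a pair of related genes, such as COPG1 and COPG2 or SEC23A and SEC23B, so that a coat can be built with either product.

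The oligonucleotide supplied miR-145-5p, whose mature sequence is shown because it is the agent that 2 of the 4 groups shared. It lies at chr5:149430661-149430683 on the plus strand (RefSeq, GRCh38.p14) and is 23 bases long. Capitals mark the seed, bases 2 to 8, the stretch that pairs with target RNAs.
miR-145-5p: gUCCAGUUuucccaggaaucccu
A perfect match to this seed reads AACUGGA in a target RNA. The 3′ UTRs of the members were not searched for it here.

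Levels are log2 quantile normalized intensities averaged over the probes of a gene, and a difference of 1 on this scale is a doubling. Differences come from limma over all genes with the replicate number as a block, each adjusted p is that test's after Benjamini-Hochberg adjustment over all 18253 genes, and 0.05 is the threshold. Spots well above background made up 60.5% to 77.3% of an array, and 0 spots were saturated. AGO2 itself, on 19 probes, fell by 0.71 ± 0.08 on the log2 scale (SE, adjusted p = 0.0049) in sirnaAGO2 against cntrl, to 61.0% of its level, and it remained at 8.34 ± 0.07 (SD, n = 3) in sirnaAGO2+mimic145. Of the markers of the cell line, VIM, CD44, EGFR, KRT8 and KRT18 had 9 to 30 probes well above background. Of those listed as low or absent in these cells, PGR had none, whereas EPCAM, CDH1, ERBB2 and ESR1 had 9, 7, 25 and 6. Such counts depend on how many probes the array holds for a gene and do not rank genes by expression. In each of the 6 slides the array with the mimic lay at the second position, so position and mimic cannot be told apart. No slide held an AGO2-silenced and an unsilenced array, so slide and silencing cannot be told apart within a slide.

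With the mimic alone, 14 of the 50 genes changed against cntrl. Those that fell, 8 in all, were GOLM1, the adaptor subunits AP2B1, AP3S1, AP1G1 and AP1S3, the coatomer subunit COPG2, and ARF3 and ARF5. The other 6 rose, and all 6 were COPII genes: SEC13, SEC24A, SEC24D, SEC23B, SAR1A and SAR1B. Over all genes the mimic changed 22.6%, of which 11.0% of genes tested fell and 11.6% rose, so that the share of members changed, 28%, was not far above that background. The median difference of the 50 members was 0.06 and that of all genes 0.01. The 3 cntrl and the 3 mimic145 arrays did not overlap for 22 members, 12 lower and 10 higher with the mimic, against 28.4% of all genes.

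**Figure D1:**
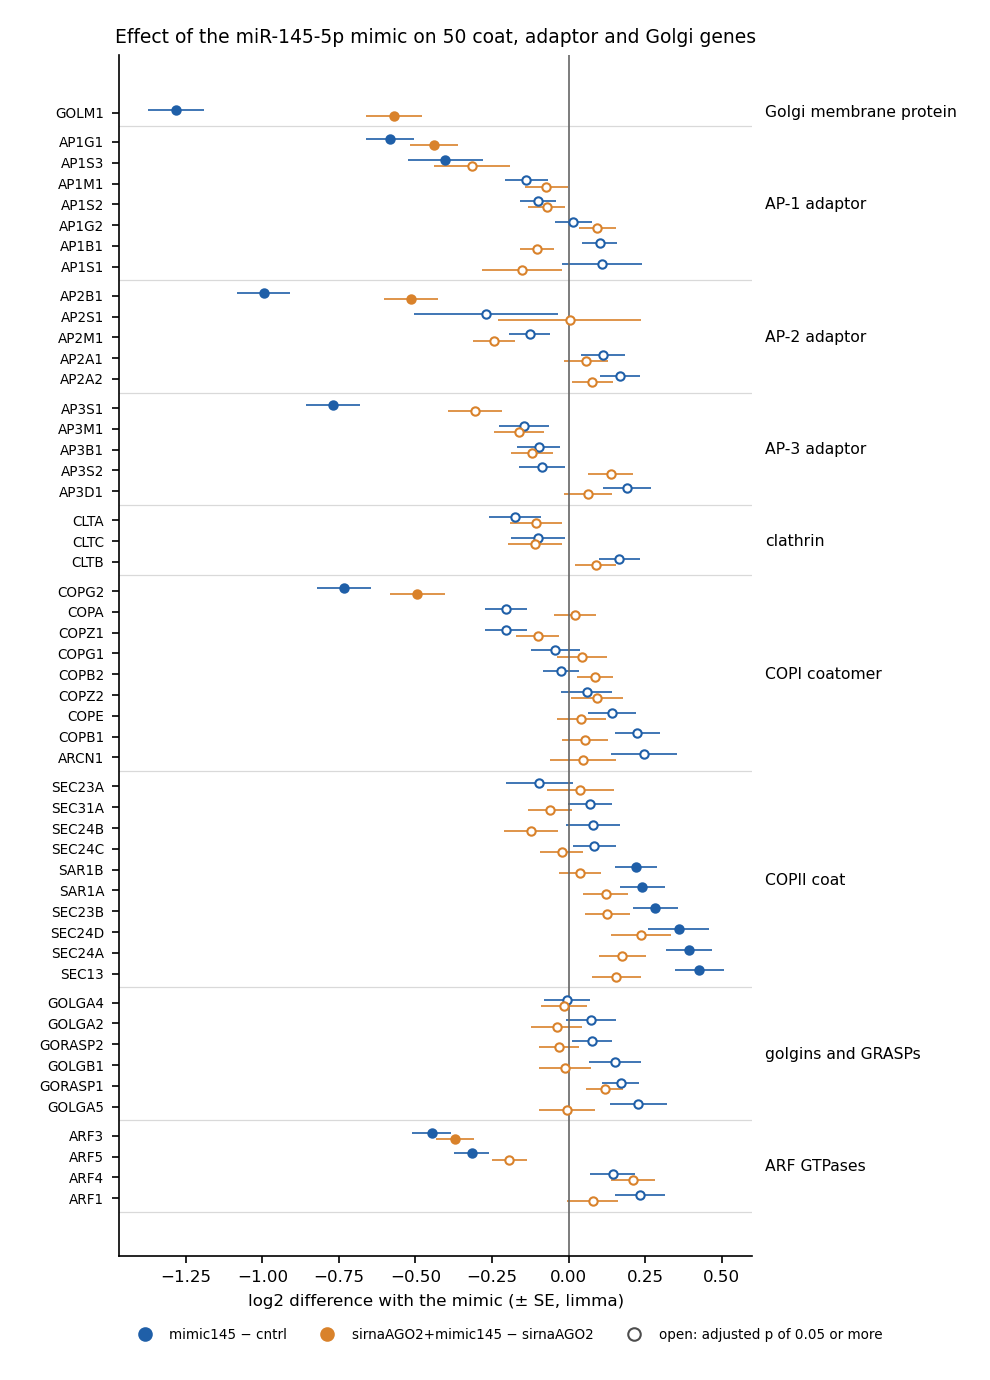
Each gene has 2 points, the log2 difference with the mimic in unsilenced cells (blue) and in AGO2-silenced cells (orange), with bars for the SE from limma; filled points passed an adjusted p of 0.05. Genes are grouped by coat or role, and GOLM1, AP2B1, AP3S1 and COPG2 stand farthest to the left, while the 6 filled points to the right of 0 are all COPII genes.

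GOLM1 codes for a membrane protein of the cis-Golgi that is shed into the circulation in liver disease and several cancers. Its level was 9.77, 9.58 and 9.90 on the 3 cntrl arrays and 8.41, 8.44 and 8.55 on the 3 mimic145 arrays. The groups were far apart, and all 11 probes of the gene were lower with the mimic, with differences from −1.67 to −0.55. The fitted difference was −1.28 ± 0.09 (SE, adjusted p = 9.4e-05), which left 41.1% of the cntrl level, and it was the largest among the members. Within the 3 slides it was −1.36, −1.14 and −1.35. In AGO2-silenced cells the level was 9.66, 9.58 and 9.76 without the mimic and 9.274, 9.019 and 9.002 with it. These groups did not overlap either, but lay closer together, with a difference of −0.57 ± 0.09 (adjusted p = 0.0154).

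The AP-1 adaptor gathers cargo with clathrin at the trans-Golgi network. Of its 7 subunits AP1G1 and AP1S3 fell, and 0 rose. AP1G1, the gamma subunit that most AP-1 complexes contain, measured 8.49, 8.36 and 8.59 in cntrl and 7.97, 7.88 and 7.85 in mimic145. All mimic145 arrays were below all cntrl arrays, and the difference was −0.58 ± 0.08 (adjusted p = 0.0012). Of its 23 probes 22 were lower and 1 was higher, from −1.42 to 0.53. With normexp background correction the difference was −0.38 and still passed (adjusted p = 9.2e-04). AP1S3, a sigma subunit, measured 7.91, 7.91 and 7.66 in cntrl and 7.53, 7.34 and 7.41 in mimic145. Its difference of −0.40 ± 0.12 (adjusted p = 0.0455) rested on 5 probes. Over those of them that were well above background on all 12 arrays it was 0.02. The call was lost with its sign kept under 18 of 27 alternatives. This restriction of the probes lost it too (limma, adjusted p = 0.855) and was the 1 that turned its sign. The remaining AP-1 genes, AP1G2, AP1B1, AP1M1, AP1S1 and AP1S2, differed by −0.14 to 0.11 and did not pass.

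AP-2 is the adaptor of clathrin-mediated endocytosis. AP2B1, its beta subunit, which binds clathrin, measured 10.58, 10.35 and 10.76 in cntrl and 9.56, 9.498 and 9.65 in mimic145. The mimic145 array was lower than the cntrl array in each slide, with differences of −1.02, −0.85 and −1.12. The fit gave −0.995 ± 0.087 (adjusted p = 2.1e-04), with all 22 probes lower and 50.2% of the cntrl level left. The other AP-2 genes did not pass. Those for the alpha subunits, AP2A1 and AP2A2, differed by 0.11 and 0.17, and that for the mu subunit, AP2M1, by −0.13. AP2S1, the sigma subunit, measured 12.31, 11.11 and 12.38 in mimic145, so that replicate 2 stood far below every other array of the gene.

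In AP-3 the decrease was in AP3S1, a sigma subunit, which measured 10.15, 9.64 and 10.10 in cntrl and 9.16, 9.10 and 9.32 in mimic145. The groups did not overlap, although cntrl replicate 2 stood low, and all 8 probes were lower. The difference was −0.77 ± 0.09 (adjusted p = 6.4e-04), which left 58.7% of the cntrl level. AP3B1, AP3D1, AP3M1 and AP3S2 differed by −0.15 to 0.19 and did not pass.

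Clathrin itself did not pass in any chain. The heavy chain CLTC differed by −0.10 and the light chains CLTA and CLTB by −0.17 and 0.17, with adjusted p of 0.112 to 0.459.

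Of the 9 COPI genes COPG2 fell and 0 rose. COPG2, a gamma subunit of the coatomer, measured 8.34, 8.28 and 8.61 in cntrl and 7.64, 7.65 and 7.72 in mimic145. All 12 probes were lower, and the mimic145 arrays lay close together, below all cntrl arrays. The difference was −0.73 ± 0.09 (adjusted p = 7.9e-04), which left 60.2% of the cntrl level. The other COPI genes, COPA, COPB1, COPB2, COPE, COPG1, COPZ1, COPZ2 and ARCN1, differed by −0.20 to 0.25, and the nearest to the threshold were COPB1 with 0.23 (adjusted p = 0.0599), COPA with −0.20 (adjusted p = 0.0633) and COPZ1 with −0.20 (adjusted p = 0.0664).

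ARF GTPases recruit COPI and AP-1 to membranes. ARF3, of class I, measured 10.09, 10.18 and 10.19 in cntrl and 9.62, 9.74 and 9.75 in mimic145. The groups did not overlap, and the difference was −0.45 ± 0.06 (adjusted p = 0.0014) with all 5 probes lower. A single probe stood out at −0.97, and the median over the probes was −0.20, which did not pass. ARF5, of class II, measured 11.62, 11.69 and 11.73 in cntrl and 11.27, 11.44 and 11.39 in mimic145, again without overlap. Its difference was −0.32 ± 0.06 (adjusted p = 0.0046), with all 7 probes lower. ARF1 and ARF4 differed by 0.23 and 0.14 and did not pass, although all 3 mimic145 arrays of each were above all 3 cntrl arrays.

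**Figure D2:**
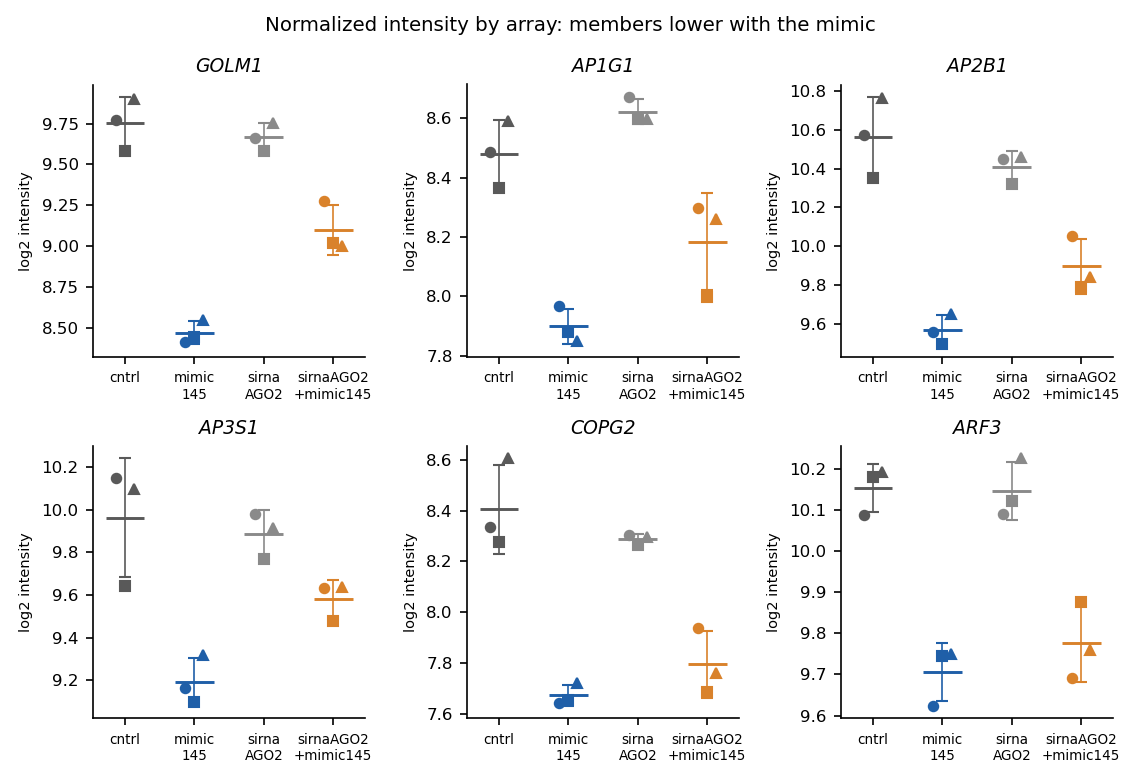
The log2 intensity of 6 members that fell with the mimic is plotted on each array, with circles, squares and triangles for replicates 1, 2 and 3, a bar for the group mean and a whisker for its SD (n = 3). In every panel the 3 mimic145 arrays lie below the 3 cntrl arrays, and the sirnaAGO2+mimic145 arrays lie below the sirnaAGO2 arrays.

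Of the 10 COPII genes 6 rose, 0 fell and 4 did not pass, against 11.6% of all genes that rose. Their median difference was 0.23, and 9 of the 10 were above 0, as were 9520 of the 18253 genes tested. SEC13, of the outer cage, measured 10.07, 10.34 and 10.07 in cntrl and 10.57, 10.57 and 10.63 in mimic145. The 3 mimic145 arrays were above all 3 cntrl arrays, by 0.43 ± 0.08 (adjusted p = 0.0052), and all 11 probes were higher. SEC24A, a cargo-binding subunit, measured 8.23, 8.52 and 8.44 in cntrl and 8.72, 8.76 and 8.89 in mimic145, a difference of 0.39 ± 0.08 (adjusted p = 0.0065). SEC24D, another cargo-binding subunit, was higher by 0.36 ± 0.10 (adjusted p = 0.0294) and SEC23B, which activates the GTPase of SAR1, by 0.28 ± 0.07 (adjusted p = 0.0247). The 2 GTPases that start the coat passed narrowly, SAR1A with 0.24 ± 0.07 (adjusted p = 0.0443) and SAR1B with 0.22 ± 0.07 (adjusted p = 0.0459), and for SAR1A the groups overlapped. SEC23A, SEC24B, SEC24C and SEC31A differed by −0.10 to 0.08 and did not pass.

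The count of COPII genes that passed depended on which arrays were in the fit, as did the count over all genes. The count of 6 was 0 without replicate 1 in all groups and 0 without replicate 3. It was 2 without cntrl replicate 1 or without mimic145 replicate 1, and 3 without cntrl replicate 2, cntrl replicate 3 or mimic145 replicate 3. Over all genes the calls fell from 4118 to 1211 without replicate 1 and to 1702 without replicate 3. They were 2770 without cntrl replicate 1 and 2563 without mimic145 replicate 1. Leaving out sirnaAGO2 replicate 1, an array outside this comparison, gave 4 COPII genes and 3530 genes in all. Without replicate 1 the difference of SEC24D was 0.24 and that of SEC23B 0.19. This is the replicate in which cntrl stood lowest for both. All 6 differences stayed above 0 under the 27 alternatives run for each, and their lowest values lay between 0.16 for SAR1B and 0.35 for SEC13. Many of these could not move the estimate. Those that changed only the block, the test or the variance, or left out only a silenced array, returned the same difference.

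**Figure D3:**
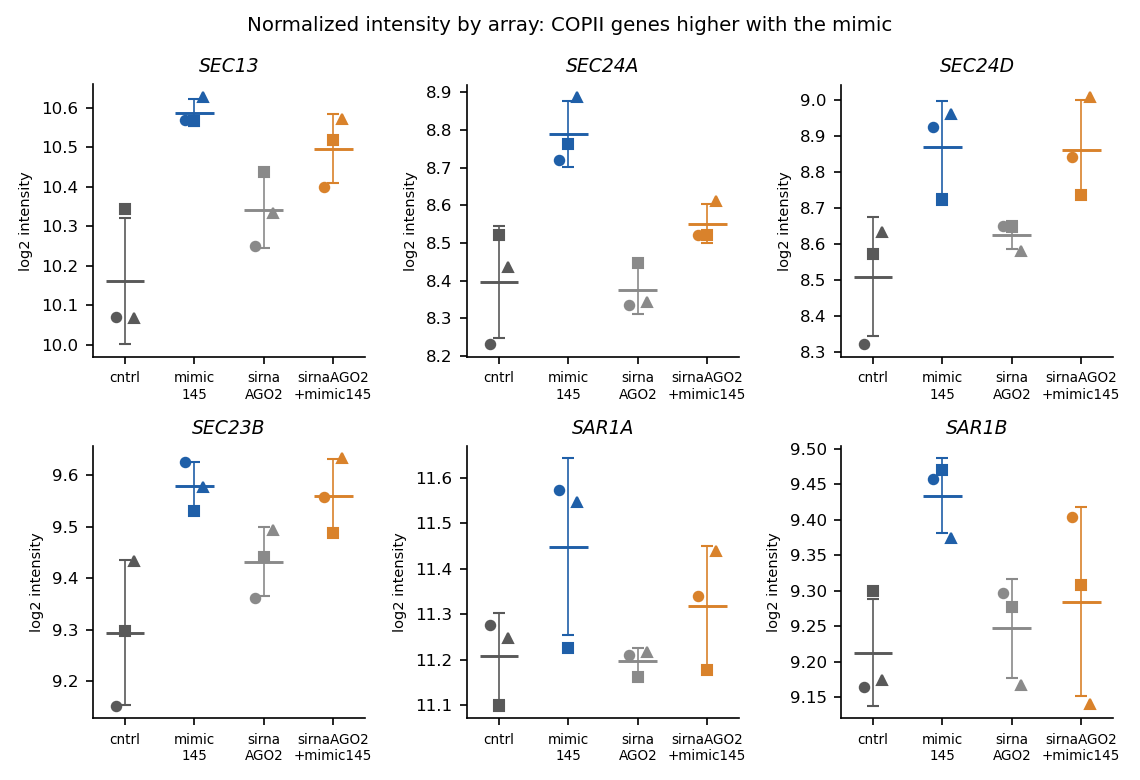
The log2 intensity of the 6 COPII genes that rose with the mimic is plotted on each array, with circles, squares and triangles for replicates 1, 2 and 3, a bar for the group mean and a whisker for its SD (n = 3). The mimic145 arrays lie above the cntrl arrays except in SAR1A, where mimic145 replicate 2 lies among the cntrl arrays.

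The golgins and GRASPs, long coiled-coil tethers and stacking proteins of the Golgi, did not pass in any of 6 genes. GOLGA2, GOLGA4, GOLGA5, GOLGB1, GORASP1 and GORASP2 differed by −0.01 to 0.23, with GORASP1 nearest to the threshold at 0.17 (adjusted p = 0.0756). At an unadjusted p under 0.05 there were 2 of the 6.

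Because several subunits come as related genes, 16 such pairs were compared by fitting the within-array difference of the 2 genes as a further feature beside all genes. In 10 of the 16 pairs the difference between the 2 genes passed. The pairs were compared after the data had been seen. Every passing pair except COPZ1 with COPZ2 holds a gene that had passed alone, so this count in part repeats those calls. The share among other pairs of genes was not computed. AP2B1 differed from AP1B1, the beta subunit of AP-1, by −1.10 ± 0.08 (adjusted p = 1.0e-04), with AP1B1 itself at 0.10, which did not pass. COPG2 differed from COPG1 by −0.69 ± 0.07 (adjusted p = 3.5e-04), AP3S1 from AP3S2 by −0.68 ± 0.06 (adjusted p = 2.4e-04) and AP1G1 from AP1G2 by −0.60 ± 0.10 (adjusted p = 0.0028). The ARF genes split within each class, with ARF3 against ARF1 at −0.68 ± 0.09 (adjusted p = 0.0014) and ARF5 against ARF4 at −0.46 ± 0.08 (adjusted p = 0.0030). COPZ1 differed from COPZ2 by −0.26 ± 0.07 (adjusted p = 0.0291), although neither gene passed alone.

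Among the COPII pairs SEC23B differed from SEC23A by 0.38 ± 0.10 (adjusted p = 0.0234). SEC24A against SEC24B gave 0.31 ± 0.09 (adjusted p = 0.0395) and SEC24D against SEC24C 0.28 ± 0.09 (adjusted p = 0.0497). SAR1A and SAR1B differed by 0.02 ± 0.09, which did not pass. The pairs of AP2B1, AP3S1 and COPG2 passed under all 24 alternatives run and those of AP1G1, ARF3 and ARF5 under 23, whereas SEC23B passed under 14, COPZ1 under 12, SEC24A under 8 and SEC24D under 6. Without cntrl replicate 1, without mimic145 replicate 1 or without mimic145 replicate 3 the count of 10 was 6. Whether probes of one gene also bind the RNA of its relative was not tested.

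**Figure D4:**
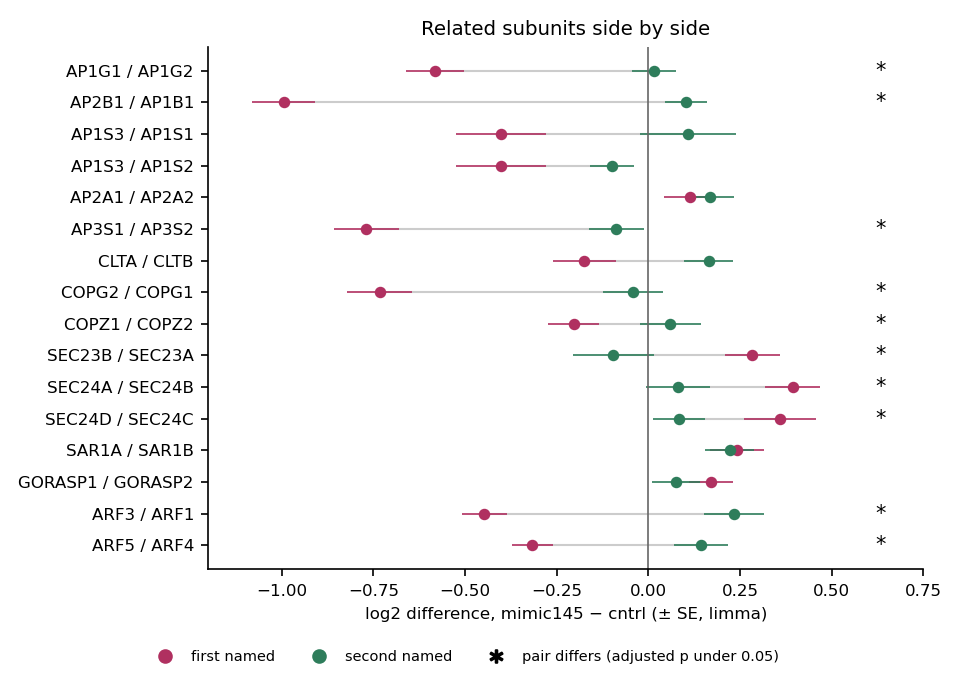
Each row shows the log2 difference of mimic145 against cntrl for the first named gene of a related pair (red) and the second (green), with bars for the SE; a star marks the 10 pairs whose difference passed an adjusted p of 0.05. AP2B1, AP3S1, COPG2 and AP1G1 lie far to the left of their relatives, and ARF3 and ARF5 lie on the other side of 0 from ARF1 and ARF4.

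In cells with AGO2 silenced, the mimic changed 5 of the 50 members against sirnaAGO2 alone, and all 5 fell. These were GOLM1, AP2B1, COPG2, AP1G1 and ARF3. Over all genes 7.28% changed in this comparison, 3.03% lower and 4.25% higher, so that the 10.0% of members was above the background share by few genes. The groups did not overlap for 14 members, 9 lower and 5 higher, against 24.1% of all genes. The median over the members was −0.01 and over all genes 0.02. With normexp background correction 8 members passed, 7 lower and 1 higher.

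AP2B1 measured 10.45, 10.32 and 10.46 in sirnaAGO2 and 10.05, 9.79 and 9.84 in sirnaAGO2+mimic145, and fell by 0.51 ± 0.09 on the log2 scale (adjusted p = 0.0173). COPG2 measured 8.30, 8.27 and 8.29 without the mimic and 7.94, 7.68 and 7.76 with it, a difference of −0.49 ± 0.09 (adjusted p = 0.0200). AP1G1 measured 8.67, 8.60 and 8.60 without and 8.30, 7.997 and 8.26 with the mimic, a difference of −0.44 ± 0.08 (adjusted p = 0.0198). For each of these genes the groups were separate, with the sirnaAGO2+mimic145 arrays more spread than the sirnaAGO2 arrays. ARF3 measured 10.09, 10.12 and 10.22 without and 9.69, 9.88 and 9.76 with the mimic, a difference of −0.37 ± 0.06 (adjusted p = 0.0173). AP3S1 and ARF5, which fell in unsilenced cells, differed by −0.31 (adjusted p = 0.0678) and −0.19 (adjusted p = 0.0690), and AP2M1 by −0.24 (adjusted p = 0.0596).

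These 5 calls were near the limit of the design. The count was 6 without sirnaAGO2+mimic145 replicate 1, 1 without sirnaAGO2 replicate 1 or without sirnaAGO2+mimic145 replicate 2, and 0 without sirnaAGO2 replicate 2, sirnaAGO2 replicate 3 or sirnaAGO2+mimic145 replicate 3. The direction of all 5 was kept in each of these. It could hardly have turned, since for each of the 5 every sirnaAGO2+mimic145 array lay below every sirnaAGO2 array. Over all 18253 genes the calls fell as well, from 1329 to 69 without sirnaAGO2 replicate 2 and 76 without sirnaAGO2 replicate 3. They were 121 without sirnaAGO2+mimic145 replicate 3, 403 without sirnaAGO2 replicate 1 and 264 without sirnaAGO2+mimic145 replicate 2. Without sirnaAGO2+mimic145 replicate 1 they rose to 2283. With the probes restricted to those above background on every array, AP1G1 differed by −0.25 and ARF3 by −0.19, and neither passed.

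Of the COPII genes 0 passed in silenced cells with limma, and 2 had an unadjusted p under 0.05. With the probes restricted to those above background on every array, SEC24D passed at 0.32 (adjusted p = 0.0369). Over all kept probes it differed by 0.24 and SEC24A by 0.18, with the groups of both not overlapping, SEC13 by 0.16, SEC23B by 0.13, SAR1A by 0.12 and SAR1B by 0.04. SAR1B measured 9.30, 9.28 and 9.17 without and 9.40, 9.31 and 9.14 with the mimic, which overlapped.

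The difference between the mimic's effects, silenced minus unsilenced cells, was tested directly and passed for 0 of the 50 members with limma and for 0.011% of all genes. At an unadjusted p under 0.05 there were 6 members. The largest difference of effects was that of GOLM1, whose decrease was smaller in silenced cells by 0.71 ± 0.13 (adjusted p = 0.0779). Its adjusted p was under 0.05 with normexp background correction and with an intensity trend in the variance. The same held with the probes restricted to those above background on every array. In the other alternatives judged at an adjusted p under 0.05 this value did not pass, and at a threshold of 0.1 it did. AP2B1 followed with 0.48 ± 0.12 (adjusted p = 0.122) and AP3S1 with 0.46 ± 0.13 (adjusted p = 0.138). For AP1G1 the difference of effects was 0.14 ± 0.11 (adjusted p = 0.525) and for ARF3 0.08 ± 0.09 (adjusted p = 0.672). Silencing lowered AGO2 RNA only in part, and AGO2 was itself 0.28 ± 0.08 higher in mimic145 than in cntrl (adjusted p = 0.0298), a call that was lost under 13 of 27 alternatives. Their part in these differences was not tested.

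**Figure D5:**
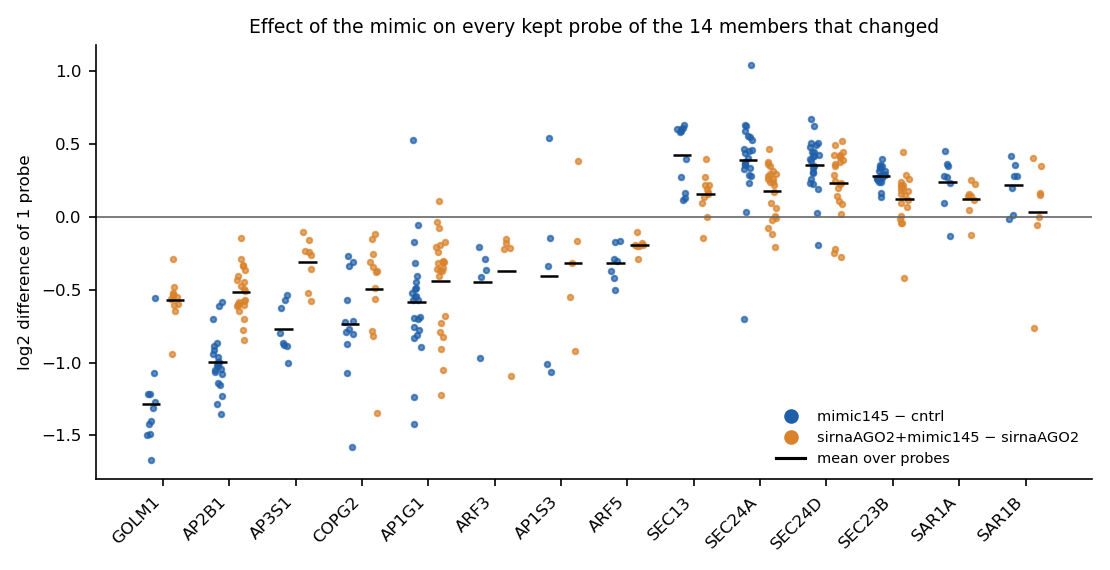
Each point is the log2 difference of 1 probe of a member that changed with the mimic, in unsilenced cells (blue) and in AGO2-silenced cells (orange), and the black bar is the mean over the probes of the gene. All probes of GOLM1, AP2B1, AP3S1, COPG2, ARF3 and ARF5 lie below 0 in both comparisons, and all probes of SEC13 and SEC23B lie above 0 in unsilenced cells.

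Silencing AGO2 without the mimic changed 0 of the 50 members by limma, against 2.57% of all genes, and 4 members had an unadjusted p under 0.05. These were COPZ2, a coatomer zeta subunit, with 0.38 ± 0.08 (adjusted p = 0.0511), AP1S2 with −0.22 ± 0.06 (adjusted p = 0.0881), ARF1 with 0.20 ± 0.08 (adjusted p = 0.236) and SEC13 with 0.18 ± 0.08 (adjusted p = 0.260). COPZ2 measured 6.56, 6.85 and 6.67 in cntrl and 7.004, 7.22 and 7.001 in sirnaAGO2, so that the groups did not overlap. The groups were separate for 7 members, 2 lower and 5 higher, against 19.1% of all genes. Without mimic145 replicate 2, 1 member passed. This comparison shares the cntrl arrays with that of the mimic alone and the sirnaAGO2 arrays with that of the mimic in silenced cells. GOLM1 and AP1G1 differed by −0.08 and 0.14 with silencing and did not pass.

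The DNA around the start sites of the COPII genes that rose was read for short motifs. The windows shown run from 250 bases before to 50 bases after the annotated start (RefSeq, GRCh38.p14, written in the direction of the gene). They belong to SEC13, SEC24A, SAR1A and SEC23B, the members that rose and hold at least 1 of 2 motifs. SEC13 and SEC23B have 2 windows each, and the first window that holds a motif is shown. Capitals mark ACGTGGC, read GCCACGT on the other strand, and TGACGT, read ACGTCA on the other strand. ACGTGGC is the core of the element through which the unfolded protein response factors XBP1 and ATF6 act, and TGACGT is the core of the cyclic AMP response element.
SEC13, chr3:10321063-10321362, minus strand: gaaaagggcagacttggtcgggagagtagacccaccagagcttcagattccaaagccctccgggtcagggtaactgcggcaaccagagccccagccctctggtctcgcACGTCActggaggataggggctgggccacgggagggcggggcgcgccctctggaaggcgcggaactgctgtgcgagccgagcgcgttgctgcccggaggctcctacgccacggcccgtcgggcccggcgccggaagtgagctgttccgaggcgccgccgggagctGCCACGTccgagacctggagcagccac
SEC24A, chr5:134648535-134648834, plus strand: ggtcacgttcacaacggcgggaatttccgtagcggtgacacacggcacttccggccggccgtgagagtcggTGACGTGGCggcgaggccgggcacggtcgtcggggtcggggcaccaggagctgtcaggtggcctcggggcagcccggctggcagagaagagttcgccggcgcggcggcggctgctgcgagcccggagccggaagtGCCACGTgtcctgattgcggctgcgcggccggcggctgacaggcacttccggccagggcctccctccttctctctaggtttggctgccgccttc
SAR1A, chr10:70170465-70170764, minus strand: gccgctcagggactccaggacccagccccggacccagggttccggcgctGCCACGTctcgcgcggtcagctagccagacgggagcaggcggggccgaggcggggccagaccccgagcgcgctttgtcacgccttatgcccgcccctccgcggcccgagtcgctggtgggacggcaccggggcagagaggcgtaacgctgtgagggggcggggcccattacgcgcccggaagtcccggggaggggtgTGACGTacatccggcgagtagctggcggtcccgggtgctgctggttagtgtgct
SEC23B, chr20:18507298-18507597, plus strand: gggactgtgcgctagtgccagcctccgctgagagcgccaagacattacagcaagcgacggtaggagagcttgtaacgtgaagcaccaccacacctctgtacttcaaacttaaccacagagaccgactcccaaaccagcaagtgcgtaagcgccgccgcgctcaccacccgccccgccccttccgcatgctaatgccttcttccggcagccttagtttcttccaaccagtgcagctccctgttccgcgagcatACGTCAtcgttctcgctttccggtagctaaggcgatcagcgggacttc
In SEC24A the first run of capitals holds both motifs, which overlap there, and a second ACGTGGC follows. SEC13 and SAR1A hold 1 of each, and SEC23B holds TGACGT alone. The window of SAR1B, which also rose, holds neither.

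A window was at hand for 44 of the 50 members and not for AP1M1, AP3B1, AP3D1, SEC24D, GOLGA4 and ARF4. ACGTGGC stood in 15 of the 44, or 34.1%, against 3.22% of all 35116 windows and 5.10% of the 14207 tested genes with a window. It was in 6 of 9 COPII genes, SEC13, SEC23A, SEC24A, SEC24C, SEC31A and SAR1A, in 4 of 9 COPI genes and in 2 of 14 adaptor genes. Of the 6 COPII genes with it, SEC23A, SEC24C and SEC31A did not pass with the mimic, and AP3S1, which fell, held it too. TGACGT stood in 16 of the 44, or 36.4%, against 7.98% of all windows and 12.5% of tested genes. It was in 6 of 9 COPII genes, 4 of 9 COPI genes and 1 of 14 adaptor genes. SEC23A and SEC24C held TGACGT and did not pass, and AP2B1 and ARF5, which fell, held it as well. Both motifs were read on both strands, 8 motifs were searched in all and these 2 were chosen after the shares had been seen. Among the other 6 was ACGTGG, a shortened form of the first motif, which stood in 40.9% of the members against 14.7% of tested genes. ACGTGG was in 7 of 9 COPI genes and 6 of 9 COPII genes. Another was CCACG, which lies in the complement of ACGTGG and stood in 77.3% against 53.0%. The E-box CACGTG, present in 2 of the members against 11.4% of tested genes, lies within the longer GTCACGTG, which 1 member held against 4.38%. The GC box GGGCGG stood in 79.5% of the members against 68.7% of tested genes. The element CCAAT stood in 12 of the 44 members, or 27.3%, below the 42.1% of tested genes.

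Around the members, 127 further genes of the same routes were taken by role: relatives of the adaptors, clathrin accessory proteins, COPII assembly factors and cargo receptors, ARF regulators and KDEL receptors, other golgins, tethers and SNAREs, and cargo of AP-1. With the mimic alone 35 of the 127 passed, 16 lower and 19 higher, a share of 27.6% against 22.6% of all genes. The largest differences were those of NAPG, which helps NSF take SNARE complexes apart, with 0.98 ± 0.08 (adjusted p = 1.8e-04), of MCFD2, a partner of the cargo receptor LMAN1, with 0.73 ± 0.07 (adjusted p = 3.9e-04), and of ITSN1, an endocytic scaffold, with −0.71 ± 0.06 (adjusted p = 1.8e-04). IGF2R, the mannose 6-phosphate receptor that AP-1 carries, fell by 0.68 ± 0.07 on the log2 scale (adjusted p = 4.5e-04). KDELR2, which returns proteins to the endoplasmic reticulum in COPI vesicles, rose by 0.68 ± 0.08 (adjusted p = 6.7e-04).

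By subgroup, of 25 COPII assembly factors and cargo receptors 6 rose and 1 fell, of 29 clathrin accessory proteins 5 fell and 4 rose, of 17 ARF regulators and KDEL receptors 2 fell and 2 rose, and of 26 tethers and SNAREs 5 fell and 7 rose. Of 15 other golgins and Golgi structure genes 2 fell, of 3 genes of AP-1 cargo 1 fell, and 0 of 12 relatives of the adaptors and clathrin passed. In silenced cells 8 of the 127 passed, or 6.30% against 7.28% of all genes. DAB2, a clathrin adaptor, fell by 0.48 ± 0.10 on the log2 scale (adjusted p = 0.0267), and IGF2R fell by 0.40 ± 0.07 (adjusted p = 0.0198), whereas NAPG was higher by 0.45 ± 0.08 (adjusted p = 0.0207), MCFD2 by 0.41 ± 0.07 (adjusted p = 0.0200) and KDELR2 by 0.38 ± 0.08 (adjusted p = 0.0311). Silencing alone changed 0 of the 127 by limma, with 28 at an unadjusted p under 0.05, and the difference of the mimic's effects passed for 0, with 19 at an unadjusted p under 0.05.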

How the data were processed

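Total RNA was labelled with Cy3 and hybridized to Agilent SurePrint G3 Human Exon 2x400K arrays. Per the file headers, the deposited intensities are processed signals of Agilent Feature Extraction 10.7.3.1, with an array design on hg19. Their deposited log2 table served as an alternative. According to the methods of the study, the authors set values under 1 to 1, quantile normalized and took log2. The same was done here on 411345 non-control spots of each of 12 arrays, after outlier spots (304 to 462 per array) had been left out. Spots of a probe were averaged, and a probe was kept where, in 1 group or more, every array had all its spots well above background (142957 of 233164 probes). Probes were named by their transcript accession through RefSeq (GRCh38.p14), which matched 209671 probes and left 23493 unnamed. A gene is the mean of its kept probes, with a median of 5 per gene, and 2832 genes rested on 1 probe. All 50 members passed the filter, with 3 or more probes each. Levels of different genes cannot be compared on these arrays.

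The labels gave groups and replicate numbers. Differences were fitted with limma 3.58.1 (R 4.3.3) on all 12 arrays, with group and the replicate number as a block, and two-sided p-values were adjusted by Benjamini-Hochberg across the 18253 genes. The replicate numbers pair the samples: deviations from the group means correlated at 0.14 to 0.58 in all 18 pairs of arrays with the same number and at −0.50 to 0.20 in 36 pairs with different numbers. Each of the 6 slides held 2 arrays with the same number. The number of arrays limits the precision, and the median SE of a difference was 0.10. The members and the lists of related genes and gene pairs were chosen with earlier results of these data known. Genes named with every array were GOLM1, AP1G1 and, per comparison, up to 6 members with the largest difference past the threshold, at least 3 probes and 1 direction in all 3 pairs. ARF5, AP1S3, SEC13, SEC24A, SAR1B, AP2S1, COPZ2 and AP1B1 were shown by array beyond that rule, after their values were seen. AGO2 was named as the check of the silencing, and of the related genes the 5 largest changes per comparison. The fits were tested on simulated data. Alternatives were other scalings, background corrections, filters, blocks, tests and thresholds, and each array or replicate left out.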

Additional observations from a re-analysis of the deposited data

Results flagged for a closer look

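AP1B1, the beta subunit of AP-1, moved in opposite directions in the 2 AGO2 backgrounds. With the mimic it was higher in all 3 replicate pairs of unsilenced cells, at 8.55, 8.53 and 8.46 in cntrl and 8.60, 8.68 and 8.57 in mimic145, and lower in all 3 pairs of silenced cells, at 8.61, 8.67 and 8.58 in sirnaAGO2 and 8.55, 8.55 and 8.46 in sirnaAGO2+mimic145. The differences were 0.10 and −0.10, and neither passed with limma (adjusted p = 0.236 and 0.265). The difference between them was −0.20 ± 0.08 (SE), with an adjusted p of 0.258 and an unadjusted p of 0.031, and it did not pass over all genes. AP1B1 was singled out because its pairs moved in opposite ways.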

How the results depend on the processing

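The 14 members changed with the mimic in unsilenced cells (8 lower, 6 higher) were 9 with no replicate block, 9 with the slide as a fixed block, 6 when only the arrays compared were fitted, 0 by the methods' t-test after adjustment, and 9 at an adjusted p under 0.01; with 1 array or replicate left out the count ran from 5 to 13. Its lowest counts were 5 without replicate 1 and 6 without replicate 3, and it was 9 without cntrl replicate 1 or mimic145 replicate 1. Higher counts were 18 with normexp, 19 with the authors' log2 table and 20 over probes well above background on all 12 arrays. Over all genes the calls went from 4118 to 1995 with no replicate block and 3227 with the slide as a fixed block. They were 1815 with only the arrays compared and 0 by the adjusted t-test. In the settings with higher counts they were 4831, 4380 and 4954, of 18253, 17966 and 16396 genes. The 5 members changed in silenced cells were 0 with no replicate block, 3 with the slide as a fixed block, 0 with only the arrays compared, 8 with normexp, 0 and 12 by the methods' t-test after and before adjustment, and 8 and 0 at adjusted p under 0.1 and 0.01; left-out arrays or replicates gave 0 to 6. The 0 members changed by silencing were 2 with normexp, with the authors' log2 table, over probes well above background on all 12 arrays and at an adjusted p under 0.1, and 6 by the unadjusted t-test, with 0 to 1 when arrays were left out. The 0 members whose mimic effects differed were 1 with normexp, over those probes, with an intensity trend and at an adjusted p under 0.1, and 6 by the unadjusted t-test. The 6 COPII genes were 2 with no replicate block, with the slide as a fixed block, by the unadjusted t-test and at an adjusted p under 0.01, 0 with only the arrays compared and by the adjusted t-test, and 0 to 5 with arrays left out. The 10 related pairs were 6 with the median over probes and 6 with no replicate block, and 4 to 10 with arrays left out. The replicate block is the pairing of the samples, so fits without it carry the spread between replicate numbers. In silenced cells the calls over all genes went from 1329 to 78 with no replicate block and 316 with the slide as a fixed block. They were 0 with only the arrays compared, 0 by the adjusted t-test and 2187 with normexp. Among 914 values of single genes under alternatives, 727 kept direction and side of the threshold. With the sign kept, 172 lost the threshold and 10 gained it, and 5 turned sign. AGO2 in silenced cells turned with 75th percentile scaling (0.0186) and with the median over probes (0.0230). AP1S3 in unsilenced cells turned over probes well above background on all 12 arrays (0.0200). SAR1B in silenced cells turned with the median over probes (−0.0036) and without sirnaAGO2+mimic145 replicate 1 (−0.0180, in a range of −0.0180 to 0.0794 over the arrays left out). With 75th percentile scaling the median of all genes in silenced cells moved from 0.02 to 0.11, and the 5 members that fell did so against that shift. Alternatives that changed only the block, the test or the variance could not turn the sign of a single-gene value. The comparison of related pairs was added after the data had been seen, and the methods' t-test was not run on it. The cause of these changes was not tested, except that fewer arrays leave fewer residual degrees of freedom. AP1S3 in unsilenced cells lost the threshold with its sign kept under 18 of 27 alternatives. Under 1 more it turned sign and did not pass either, and the reason was not tested.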
